A study of Mus musculus with 16 samples.

Results

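The potassium channel genes of the mouse were examined here as the 94 protein-coding genes whose symbol begins with Kcn, out of 21887 protein-coding genes in the RefSeq table of build GRCm38.p6 (mm10). The rule reads the symbol and no measured value, although the family was picked with earlier results of these data known. The data are ChIP-seq peak lists from mouse embryonic stem cells of the CJ9 line that carried the arid4b-delta allele or were WT and that were directed to endoderm or to mesoderm for 5 days. The Arid4b protein belongs to Sin3-HDAC, a complex that represses genes by removing acetyl groups from histones. The extent of the deletion and the number of clones are not stated in the labels. The 4 combinations were arid4b-delta endoderm, WT endoderm, arid4b-delta mesoderm and WT mesoderm. In each of them H3K4me3, H3K27me3 and H3K27ac were profiled with 1 library per mark, which gave 12 peak lists.

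Potassium channels let potassium ions leave the cell and so set the resting potential and end the action potential of nerve and muscle. Voltage-gated, calcium- or sodium-activated, inward-rectifier and two-pore-domain channels differ in what opens them, and auxiliary subunits tune their gating and their transport to the membrane. Many of these genes belong to differentiated neurons, muscle and epithelia. In embryonic stem cells, promoters of such genes often carry H3K4me3, the mark of active and poised promoters, together with H3K27me3, the mark laid down by Polycomb, a state called bivalent. H3K27ac marks promoters and enhancers in use.

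Each group is a single library without replicates, so groups were compared by counts and no p-value is given. Sequencing depth is unknown, and the 95% intervals beside shares are exact Clopper-Pearson intervals for counting error alone. In every pair more peaks were listed in arid4b-delta than in WT, by a ratio of 1.13 in endoderm and 1.23 in mesoderm for H3K4me3, 1.61 and 1.6 for H3K27me3, and 2.52 and 1.82 for H3K27ac. The part that list length played in the counts below was not tested, and counts in lists matched in length are given for the marks of 1 genotype only and for promoters with both methylation marks, not for the lineage, class or transition counts. Of the lineage markers, none of the 6 endoderm genes had promoter H3K27ac in any library, while T, Tbx6 and Pdgfra, 3 of the 6 mesoderm genes, had it in WT mesoderm alone. Of the 5 pluripotency genes, 3 had promoter H3K27ac in arid4b-delta endoderm, 4 in WT endoderm, 4 in arid4b-delta mesoderm and 2 in WT mesoderm. Pou5f1 and Sox2 were acetylated in all 4 combinations, and Zfp42 in none. Arid4b and Rest, which encodes a repressor of neuronal genes, had H3K4me3 and H3K27ac and no H3K27me3 at their promoters in all 4. The Arid4b peaks do not check the genotype, because the deleted part is not given.

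Potassium channel promoters carried H3K4me3 and H3K27me3 together more often than promoters in general. A promoter was counted as marked when a peak shared at least 1 bp with the window of 1000 bp around a promoter end on either side, and it was then classed by its methylation marks. Both marks were present at 57 of 94 Kcn promoters in arid4b-delta endoderm (60.6%, 95% interval 50 to 70.6) and at 36 in WT endoderm (38.3%, 28.5 to 48.9). In mesoderm both were present at 55 promoters in arid4b-delta (58.5%, 47.9 to 68.6) and at 33 in WT (35.1%, 25.5 to 45.6). Over all protein-coding genes these shares were 14.8% and 10.9% in arid4b-delta and WT endoderm, and 14.8% and 8.16% in arid4b-delta and WT mesoderm. In every combination the Kcn interval lay wholly above the share of all genes. With the 2 lists of each pair matched in length, both marks were counted at 38 and 36 Kcn promoters in arid4b-delta and WT endoderm, and at 36 and 33 in arid4b-delta and WT mesoderm. These are 40.4% and 38.3% in endoderm and 38.3% and 35.1% in mesoderm, against 8.16% to 10.9% of all genes. With only the 50% of each list with the highest fold kept, both marks were at 20 Kcn promoters in arid4b-delta endoderm (21.3%, 13.5 to 30.9, all genes 5.25%) and at 6 in WT endoderm (6.38%, 2.38 to 13.4, all genes 3.13%). In mesoderm they were then at 15 in arid4b-delta (16.0%, 9.22 to 25, all genes 5.69%) and at 5 in WT (5.32%, 1.75 to 12, all genes 2.16%). Under that setting the interval of WT endoderm holds the share of all genes, as does that of WT mesoderm, and the genotypes differ by over 1.5 times.

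**Figure D1:**
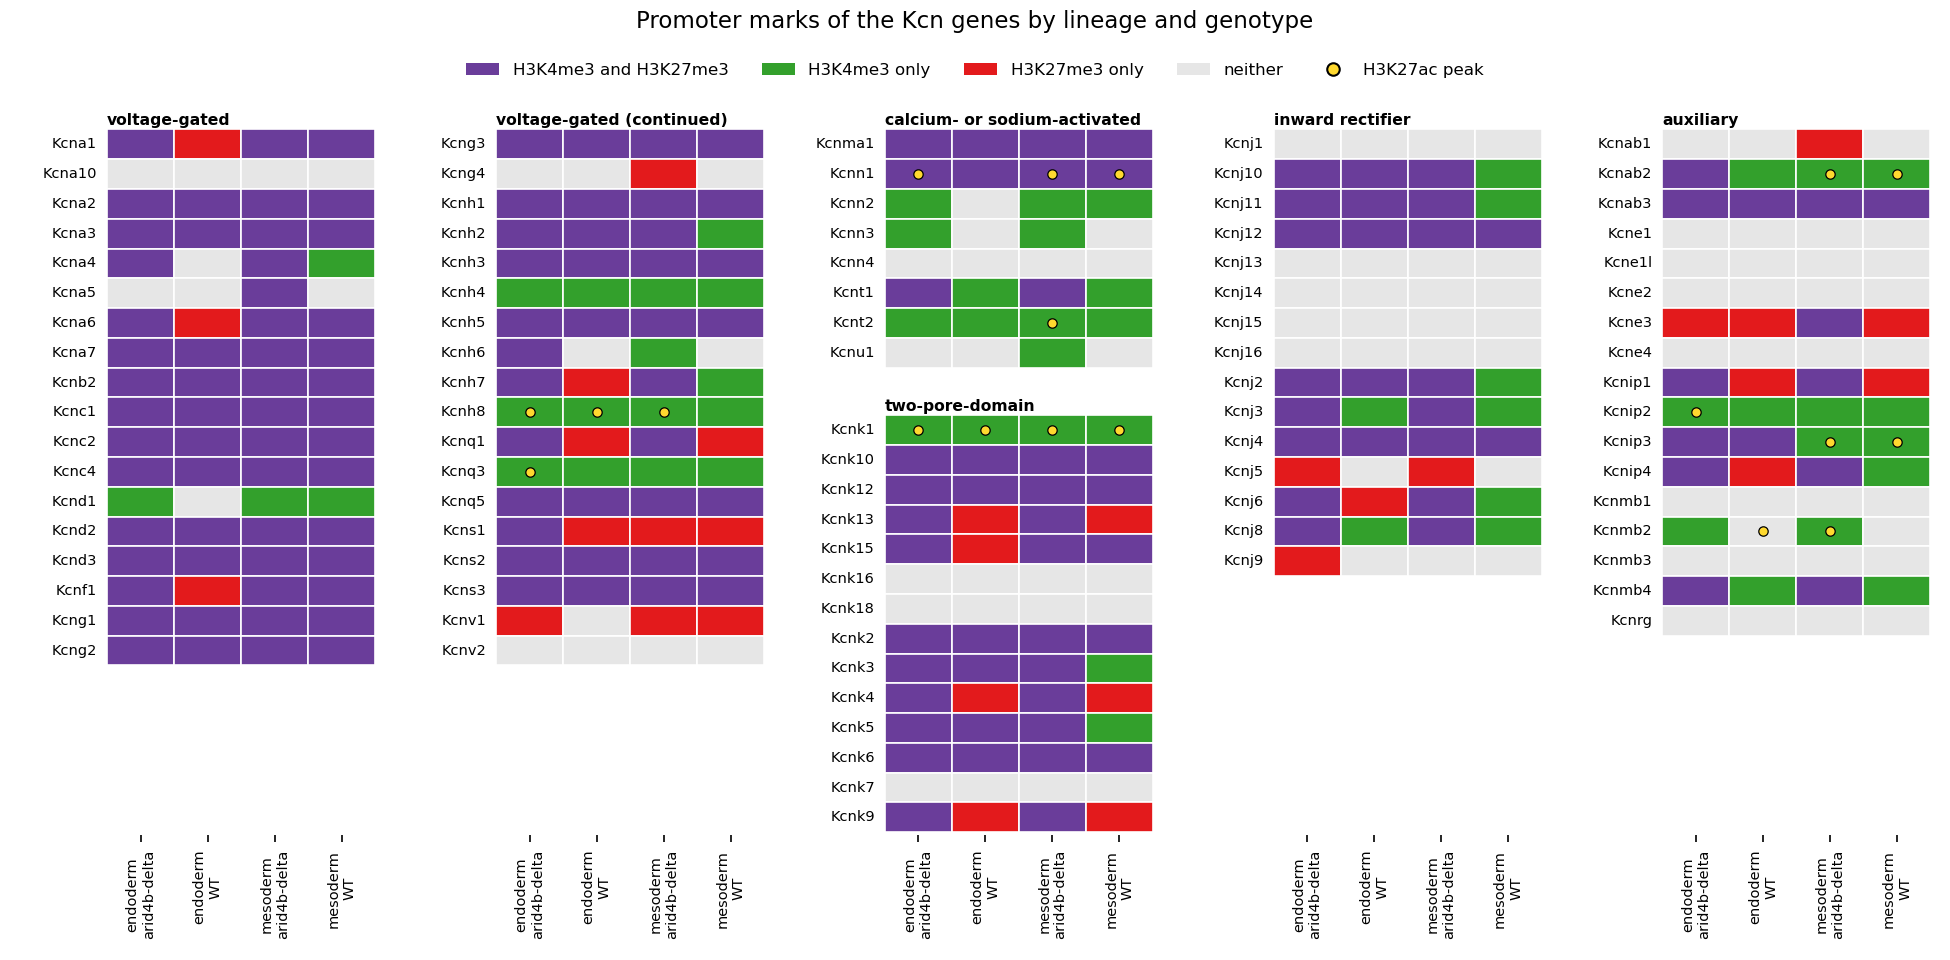
Each row is 1 of 90 of the 94 Kcn genes, grouped by channel class, and each column is a lineage and genotype with 1 library per mark. Colours give the promoter class (purple for H3K4me3 and H3K27me3, green for H3K4me3 only, red for H3K27me3 only, grey for neither), and yellow dots mark a promoter H3K27ac peak. Purple rows fill most of the voltage-gated block, and the 18 rows that are grey throughout lie mainly among the auxiliary and inward-rectifier genes.

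The difference from other genes lay mainly in H3K27me3. The H3K27me3 lists reach down to weak calls, with a lowest -log10 q, the authors' own value, of 0.307 to 0.358. In the lists of the other 2 marks the lowest was 2.0 to 2.44. Kcn promoters held weak H3K27me3 calls, such as Kcnmb4 in arid4b-delta endoderm (0.657), and strong ones, such as Kcnj3 in arid4b-delta mesoderm (13.6). H3K27me3 marked 61 Kcn promoters in arid4b-delta endoderm (64.9%), against 50 in WT endoderm (53.2%), and the shares over all genes were 17.4% in arid4b-delta and 14.8% in WT. In mesoderm it marked 60 Kcn promoters in arid4b-delta (63.8%), against 41 in WT (43.6%), with 16.5% in arid4b-delta and 9.6% in WT over all genes. H3K4me3 marked 68 Kcn promoters in arid4b-delta endoderm (72.3%, 62.2 to 81.1) and 49 in WT endoderm (52.1%, 41.6 to 62.5), against 61.1% and 56.1% of all genes. In mesoderm H3K4me3 marked 70 in arid4b-delta (74.5%, 64.4 to 82.9) and 59 in WT (62.8%, 52.2 to 72.5), against 62.0% and 58.6% over all genes. The WT intervals hold the share of all genes and the arid4b-delta intervals lie just above it. Wherever a Kcn gene had both marks, they lay at the same promoter end, and the peaks themselves overlapped at 54 of 57 and 36 of 36 promoters in arid4b-delta and WT endoderm and at 52 of 55 and 32 of 33 in arid4b-delta and WT mesoderm. In these bulk samples both marks on the same chromosomes and each mark in a different part of the cells cannot be told apart, nor can fewer marked cells and less of a mark per cell.

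**Figure D2:**
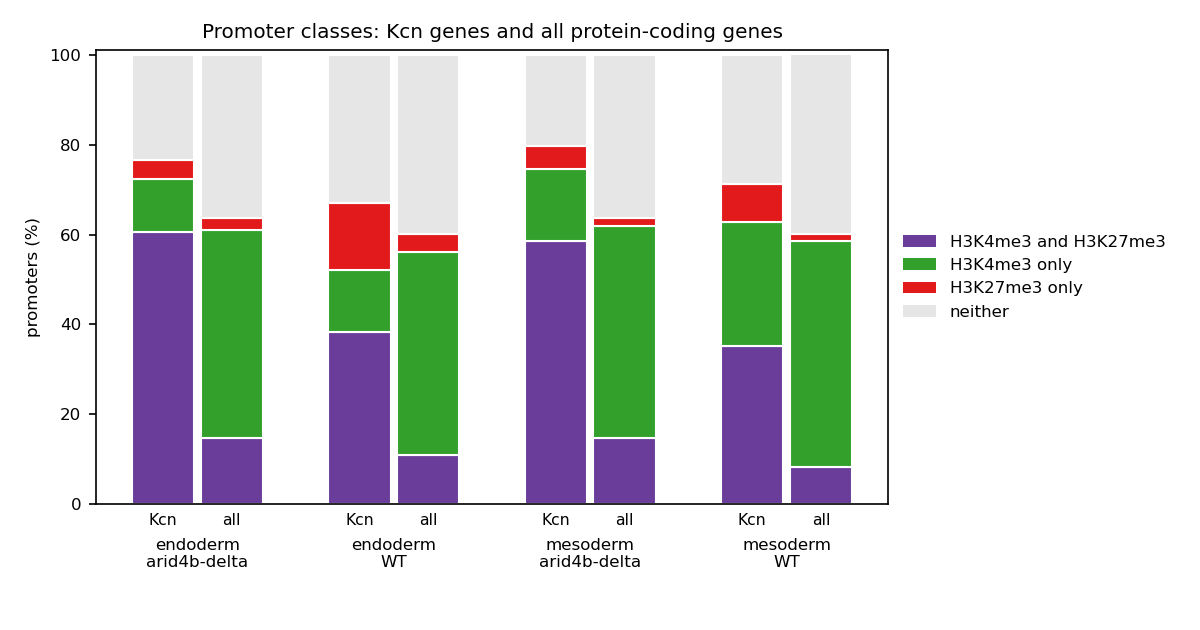
Stacked bars give the percentage of promoters in each class, for the 94 Kcn genes (left bar of each pair) and for 21887 protein-coding genes (right bar), per lineage and genotype. The purple part, promoters with both methylation marks, runs from 35.1% to 60.6% in Kcn genes and from 8.16% to 14.8% in all genes.

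A core of 29 Kcn genes had both marks in all 4 combinations (30.9%, against 5.9% of all genes). In lists matched in length 14 did (14.9%, against 3.26%), and with the upper 50% of each list 1 did (1.06%, against 0.315%). It held 20 of the 40 voltage-gated genes, among them Kcna2, Kcna3 and Kcnq5, and the genes Kcnma1 and Kcnn1 of calcium-activated channels. The start of Kcnq5, which encodes a subunit of the neuronal M-current, is shown for its CpG content. Its CpG ratio was near the median of the 26 listed Kcn starts, of 19 genes, with both marks in all 4 combinations. The 300 bases run from 250 before to 50 after a listed start on the minus strand, chr1:21961893-21962192, and are RefSeq's (GRCm38.p6), with CpG dinucleotides in capitals. This stretch holds 20 CpG, an observed over expected ratio of 0.681.

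Kcnq5: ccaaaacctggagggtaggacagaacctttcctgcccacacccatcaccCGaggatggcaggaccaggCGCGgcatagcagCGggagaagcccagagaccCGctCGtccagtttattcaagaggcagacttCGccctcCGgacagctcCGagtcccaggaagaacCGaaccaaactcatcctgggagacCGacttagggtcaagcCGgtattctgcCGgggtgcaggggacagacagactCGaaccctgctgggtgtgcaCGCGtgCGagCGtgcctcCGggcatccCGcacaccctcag

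By summed length of the promoter peaks, H3K27me3 in the core was longest over Kcnj4, an inward rectifier of neurons and muscle. Its H3K27me3 promoter peaks summed to 13026 bp in arid4b-delta endoderm, 6540 bp in WT endoderm, 15763 bp in arid4b-delta mesoderm and 5404 bp in WT mesoderm, where the whole length of each peak that touches the promoter was counted. These are sums of 2 separate peaks, except in arid4b-delta mesoderm, which had 1 peak. Kcnh3, an ether-a-go-go type channel of the brain, had 5807 and 4729 bp in arid4b-delta and WT endoderm and 6249 and 4951 bp in arid4b-delta and WT mesoderm. In both of these genes the arid4b-delta libraries had the longer domain of the pair. Kcnk12, a two-pore-domain gene, had 6641, 4548, 6501 and 2430 bp in arid4b-delta endoderm, WT endoderm, arid4b-delta mesoderm and WT mesoderm. Its calls were weak, with a -log10 q of 0.862, 0.858, 1.34 and 0.92 for the peak of highest fold in each. In the same order, Kcnc4, a fast voltage-gated channel, had 6508, 3864, 4568 and 3077 bp, and Kcnk10, a mechanically and lipid-gated two-pore channel, had 5928, 4362, 4525 and 2182 bp. Beside these domains the H3K4me3 peaks were short, from 512 bp at Kcnh3 in WT endoderm to 2387 bp at Kcnk12 in arid4b-delta mesoderm.

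Kcnma1, the pore of the large-conductance calcium-activated channel, belonged to the same core. H3K27me3 over Kcnma1 summed to 4485 and 2978 bp in arid4b-delta and WT endoderm and to 3329 and 2733 bp in arid4b-delta and WT mesoderm.

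At the other extreme, 18 Kcn genes had no promoter peak in any of the 12 lists (19.1%, against 34.4% of all genes). They were Kcna10, Kcnv2, Kcnn4, Kcnj1, Kcnj13, Kcnj14, Kcnj15, Kcnj16, Kcnk7, Kcnk16, Kcnk18, Kcne1, Kcne1l, Kcne2, Kcne4, Kcnmb1, Kcnmb3 and Kcnrg. Auxiliary genes made up 7 of them and inward rectifiers 5. Kcnj1 is the potassium secretory channel of the kidney, and Kcne2 a partner of Kcnq1 in the stomach. Kcnn4, the intermediate-conductance calcium-activated channel of lymphocytes and red cells, was the only calcium- or sodium-activated gene without a mark. The promoter of Kcnk18, a two-pore channel of sensory neurons, is shown (plus strand, chr19:59219398-59219697, RefSeq GRCm38.p6, CpG in capitals). This start was near the median CpG ratio of the 30 listed Kcn starts with neither methylation mark in all 4 combinations, some of them in genes marked elsewhere. It holds 6 CpG, a ratio of 0.269.

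Kcnk18: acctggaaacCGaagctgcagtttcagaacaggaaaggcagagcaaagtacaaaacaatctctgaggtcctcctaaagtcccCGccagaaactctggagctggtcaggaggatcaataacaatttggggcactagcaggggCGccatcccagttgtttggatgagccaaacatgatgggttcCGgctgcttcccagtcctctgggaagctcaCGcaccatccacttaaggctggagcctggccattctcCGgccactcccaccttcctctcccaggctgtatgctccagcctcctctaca

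CpG content differed between starts grouped in this way. Each listed start was grouped by the marks within 1000 bp of that start, so starts of 1 gene can fall in different groups. The median CpG ratio was 0.665 in the 26 starts with both marks in all 4 combinations, 0.499 in the 31 starts with any other pattern, 0.541 in the 7 starts with H3K4me3 only in all 4, and 0.262 in the 30 starts with neither methylation mark in all 4. The median CpG count per 300 bases followed the same order, with 20, 11, 12 and 5. Over all genes the 4 medians were 0.776, 0.641, 0.803 and 0.181, so marked Kcn starts had fewer CpG than marked starts in general, most of all where H3K4me3 stood alone. The spread within groups was wide. A second listed start of Kcnq5, at 21962650, had a ratio of 0.19 and 3 CpG, although the gene kept both marks throughout. Some genes have several listed starts, so the points are not independent.

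**Figure D3:**
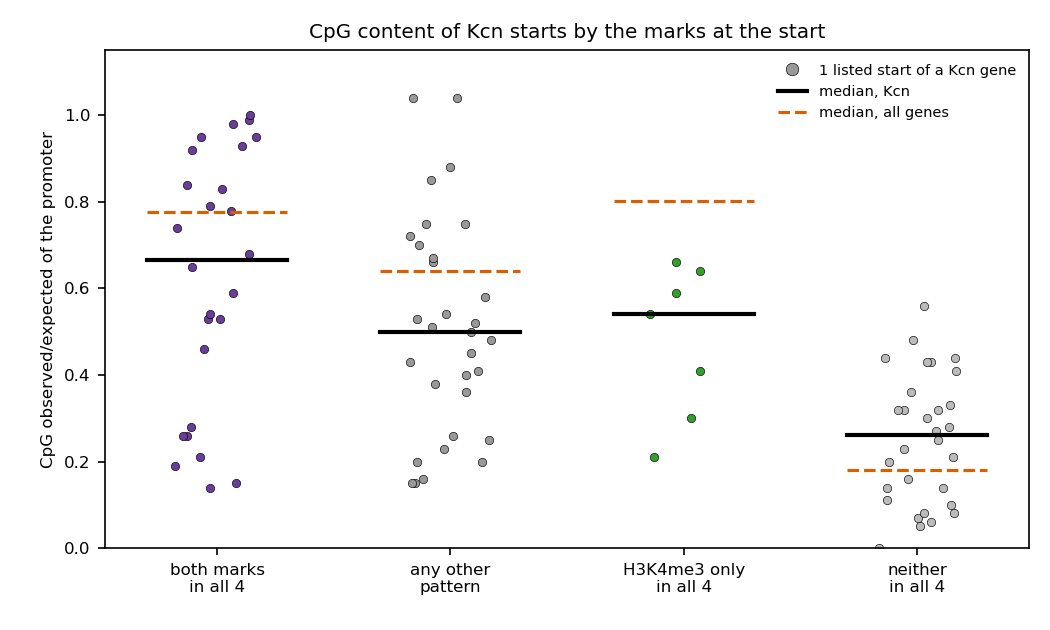
Each point is a listed start of a Kcn gene, with the observed over expected CpG ratio of its 300-base promoter on the vertical axis and the mark pattern within 1000 bp of that start over the 4 combinations on the horizontal axis. Black bars are Kcn medians (0.665, 0.499, 0.541 and 0.262 from left to right) and dashed bars the medians of all genes.

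H3K27ac was rare at these promoters. It marked 5 Kcn promoters in arid4b-delta endoderm (5.32%) and 3 in WT endoderm (3.19%), against 27.3% and 27.7% of all genes. In mesoderm it marked 7 in arid4b-delta (7.45%) and 4 in WT (4.26%), against 32.7% and 30.8% of all genes. In the 4 combinations together 9 Kcn genes were acetylated at least once (9.57%, against 38.7% of all genes). In arid4b-delta endoderm, 4 of the 5 acetylated promoters had H3K4me3 only. Among promoters with both methylation marks there, 1 of 57 was acetylated, against 11.9% of all genes of that class.

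Kcnk1, a weakly rectifying two-pore channel of heart and kidney, was the only member with H3K27ac in all 4 combinations. Its promoter acetylation summed to 1109 bp in arid4b-delta endoderm, 1122 bp in WT endoderm, 1259 bp in arid4b-delta mesoderm and 547 bp in WT mesoderm, and its class was H3K4me3 only in each. The listed start is given for its place beside the peak (plus strand, chr8:125994852-125995151, RefSeq GRCm38.p6, CpG in capitals), with 10 CpG and a ratio of 0.589. The acetylation peak of arid4b-delta mesoderm began inside these bases, at 125994876, and the strongest peaks of the other 3 libraries began downstream of them, between 125995304 and 125995391.

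Kcnk1: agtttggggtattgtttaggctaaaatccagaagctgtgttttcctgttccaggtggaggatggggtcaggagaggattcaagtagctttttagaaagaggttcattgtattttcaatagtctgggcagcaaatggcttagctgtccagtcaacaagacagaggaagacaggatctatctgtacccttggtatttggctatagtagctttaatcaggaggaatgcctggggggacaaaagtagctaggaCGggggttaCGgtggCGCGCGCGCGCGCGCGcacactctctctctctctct

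Kcnh8, an ether-a-go-go-like voltage-gated channel, had H3K27ac of 871 bp in arid4b-delta endoderm, 984 bp in WT endoderm and 1137 bp in arid4b-delta mesoderm, and none in WT mesoderm. Its mesoderm peak was strong within its list, at percentile 90.9 by fold enrichment, and the nearest WT mesoderm peak lay 549747 bp away. Kcnn1, a small-conductance calcium-activated channel, was acetylated in arid4b-delta endoderm (157 bp), arid4b-delta mesoderm (168 bp) and WT mesoderm (671 bp) and kept both methylation marks in all 4. Its marks are pooled over 3 promoter ends. In WT mesoderm its H3K27ac peak, chr8:70865129-70865799, and its H3K27me3 peak, chr8:70862162-70863262, lay at different ends. Kcnip3, a calcium sensor that binds Kcnd channels and also represses transcription, and Kcnab2, a beta subunit of Kcna channels, were acetylated in mesoderm in both genotypes. The Kcnab2 promoter lies within 1000 bp of that of Nphp4, so its peaks may belong to either gene.

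The 4 remaining acetylated genes had H3K27ac in 1 or 2 libraries. Kcnq3, a subunit of the M-current, and Kcnip2, the main partner of Kcnd channels in the heart, had it in arid4b-delta endoderm alone, with single peaks of 146 and 168 bp. Kcnt2, a sodium-activated channel, had a 277 bp peak in arid4b-delta mesoderm alone. Kcnmb2, a beta subunit of the large-conductance channel, had a 206 bp peak in WT endoderm and 2 peaks summing to 474 bp in arid4b-delta mesoderm. By genotype, endoderm H3K27ac was in arid4b-delta only at 3 promoters, Kcnn1, Kcnq3 and Kcnip2 (background over all genes 4.35%), and in WT only at 1, Kcnmb2 (background 4.79%). In mesoderm it was in arid4b-delta only at 3, Kcnt2, Kcnmb2 and Kcnh8 (background 5.64%), and in WT only at 0 of 94 (background 3.75%). These shares, of 0 to 3.19%, lie near or below the background. In lists matched in length, arid4b-delta only and WT only were at 2 and 1 in endoderm (backgrounds 2.02% and 8.58%) and at 1 and 1 in mesoderm (backgrounds 2.65% and 7.57%).

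H3K4me3 differed between the genotypes at more Kcn promoters than at promoters in general. In endoderm 19 Kcn promoters had H3K4me3 in arid4b-delta only (20.2%, 95% interval 12.6 to 29.8, background 5.04%) and 0 in WT only (background 0.0777%). In mesoderm 11 had it in arid4b-delta only (11.7%, 5.99 to 20, background 3.5%) and 0 in WT only (background 0.119%). With lists of equal length the counts were 15 in endoderm (16.0%, background 4.31%) and 8 in mesoderm (8.51%, background 2.56%) for arid4b-delta only, and 0 in endoderm and 1 in mesoderm for WT only. The peaks concerned were weak ones. Their median percentile by fold enrichment within the arid4b-delta list was 28.5 in endoderm and 31.1 in mesoderm, against 60.4 in endoderm and 60.8 in mesoderm for Kcn promoters marked in both genotypes and 74.4 and 75.6 for all marked genes. A WT peak lay within 2500 bp of the promoter end at 1 of the 19, Kcnd1, and at 1 of the 11, Kcnk13. For 21 members without a listed start the promoter end was itself chosen by H3K4me3. Among the 69 members with a listed start, H3K4me3 was in arid4b-delta only at 14 in endoderm (20.3%, background 4.58%). In mesoderm it was so at 8 of them (11.6%, background 3.04%).

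The same 8 genes had H3K4me3 in arid4b-delta only in both lineages: Kcnq1, Kcnh6, Kcnn3, Kcnk4, Kcnk9, Kcnk13, Kcnip1 and Kcnmb2. Over all genes 1.96% did so. Kcnq1 encodes the pore of the slow delayed rectifier of the heart and of epithelial potassium channels (gene 16535, chr7:143106877-143427050). Its H3K4me3 peaks summed to 850 bp in arid4b-delta endoderm and 961 bp in arid4b-delta mesoderm, and both WT lists had none at the promoter, with a WT peak elsewhere in the gene in each lineage. They were the strongest of the group, at fold enrichments, the authors' own value, of 12.4 and 10.5 and percentiles 53.5 and 48.7. Kcnk9, an acid-sensitive two-pore channel of the brain, had 688 and 723 bp in arid4b-delta endoderm and mesoderm, and none at the promoter in WT. Neither Kcnq1 nor Kcnk9 has a listed start, so the gene end with more H3K4me3 over the 4 libraries was taken as the promoter. Their H3K4me3 contrast is therefore not independent of that choice. Both genes carried H3K27me3 in all 4 combinations, so in WT they were classed as H3K27me3 only and in arid4b-delta as both.

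Kcnk13, a two-pore channel of microglia, Kcnk4, a mechanosensitive two-pore channel of neurons, and Kcnip1, a calcium sensor for Kcnd channels, shared that pattern. At Kcnk13 it rests on the window, because a WT mesoderm H3K4me3 peak lay 1002 bp from the promoter end, just outside the 1000 bp counted. H3K4me3 peaks summed to 296 and 785 bp at Kcnk13 in arid4b-delta endoderm and mesoderm, and to 155 and 529 bp at Kcnk4. At Kcnip1 they measured 322 and 298 bp, against H3K27me3 of 2948 and 1590 bp in arid4b-delta and WT endoderm and 2586 and 580 bp in arid4b-delta and WT mesoderm. The Kcnip1 peak of arid4b-delta endoderm, chr11:33843433-33843754, overlaps the promoter below, which is shown as the most CpG-rich listed start among these 3 genes (minus strand, chr11:33843637-33843936, RefSeq GRCm38.p6, CpG in capitals). It holds 16 CpG, a ratio of 0.515.

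Kcnip1: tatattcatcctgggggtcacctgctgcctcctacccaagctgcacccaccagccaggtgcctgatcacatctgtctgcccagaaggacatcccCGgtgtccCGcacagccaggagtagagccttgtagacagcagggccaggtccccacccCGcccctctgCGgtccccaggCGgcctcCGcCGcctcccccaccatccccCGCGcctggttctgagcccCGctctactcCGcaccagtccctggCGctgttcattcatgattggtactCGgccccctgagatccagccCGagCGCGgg

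Kcnn3, a small-conductance channel, and Kcnmb2 had H3K4me3 in arid4b-delta without H3K27me3, of 184 and 694 bp at Kcnn3 and 160 and 516 bp at Kcnmb2 in endoderm and mesoderm. Kcnh6, an ether-a-go-go-related channel, had peaks of 287 and 237 bp and H3K27me3 in arid4b-delta endoderm alone. A WT H3K4me3 peak lay elsewhere in the Kcnh6 gene in each lineage. Among genes with endoderm H3K4me3 in arid4b-delta only, the highest fold enrichments after Kcnq1 were those of Kcnj6, a G-protein-gated inward rectifier (530 bp), Kcna1, an axonal voltage-gated channel (1446 bp), and Kcnk9. Kcnh7 (295 bp), Kcna4, an A-type channel (823 bp), Kcnd1 (377 bp) and Kcnf1, a silent subunit that modifies Kcnb channels (403 bp), came next. In mesoderm Kcne3, the partner of Kcnq1 in the gut, and Kcna5, a channel of atrial muscle, had peaks of 518 and 514 bp in arid4b-delta only.

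As a share of all promoters, H3K27me3 was also in arid4b-delta only more often at Kcn genes, which carried this mark more often in every library. Its balance with WT only depended on the peaks kept. In endoderm it was in arid4b-delta only at 11 Kcn promoters (11.7%, 5.99 to 20, background 4.6%) and in WT only at 0 (background 1.95%). In mesoderm it was in arid4b-delta only at 19 (20.2%, 12.6 to 29.8, background 7.57%) and in WT only at 0 (background 0.626%). Of the promoters marked in arid4b-delta, a lower share of Kcn genes than of all genes was marked in arid4b-delta only. In endoderm these were 11 of 61 Kcn promoters, against 1006 of 3811 over all genes. In mesoderm they were 19 of 60, against 1656 of 3620. A WT H3K27me3 peak lay within 2500 bp of the promoter end at 3 of the 11 in endoderm and at 4 of the 19 in mesoderm. In lists matched in length the endoderm counts became 9 for arid4b-delta only and 15 for WT only, and the mesoderm counts 12 for arid4b-delta only and 12 for WT only. With the upper 50% of each list, arid4b-delta only and WT only were at 17 and 12 in endoderm and at 15 and 11 in mesoderm. With lists of equal length both directions stayed above the background as shares of all promoters, and shares of marked promoters were not counted there. In endoderm the shares were 9.57% of Kcn genes against 2.96% of all genes for arid4b-delta only, and 16.0% against 5.56% for WT only. In mesoderm the shares were 12.8% against 4.89% for arid4b-delta only and 12.8% against 3.19% for WT only.

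**Figure D4:**
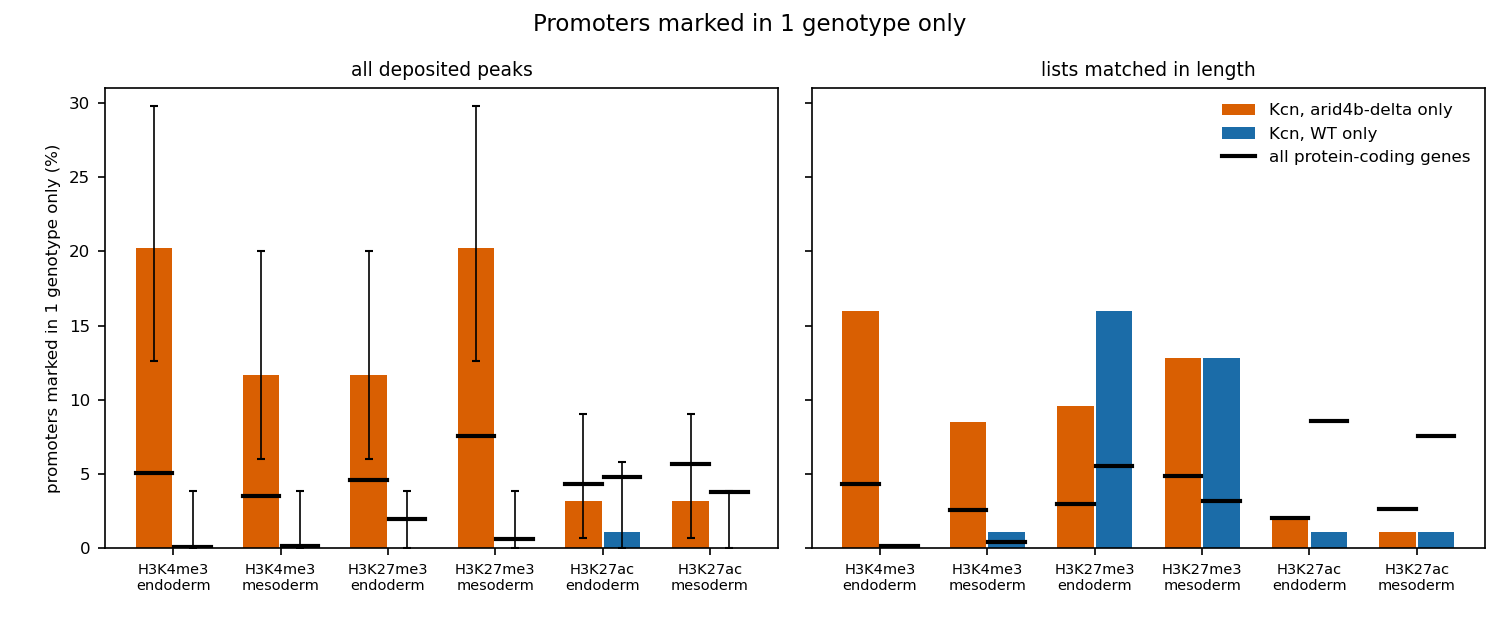
Bars give the percentage of the 94 Kcn promoters marked in arid4b-delta only (orange, left of each pair) or in WT only (blue), per mark and lineage, and black lines the same over all protein-coding genes. The left panel uses all deposited peaks, with exact 95% intervals, and the right panel lists matched in length, where H3K4me3 stays on the arid4b-delta side and H3K27me3 is found on both sides.

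In both lineages 7 genes had H3K27me3 in arid4b-delta only (1.97% of all genes did), among them Kcna4, Kcnt1, Kcnj3, Kcnj5, Kcnj8 and Kcnmb4. Kcnj8, the pore of vascular ATP-sensitive channels, had 1941 bp and 957 bp in arid4b-delta endoderm and mesoderm, with a WT endoderm peak 1036 bp away. Kcnj3, a G-protein-gated rectifier of heart and brain, had 521 and 793 bp, and its mesoderm peak was among the strongest of its list, at percentile 98.3. Its nearest WT peaks lay 520827 bp away in endoderm and 1326829 bp away in mesoderm.

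Kcnj5, the cardiac partner of Kcnj3, had H3K27me3 of 1641 and 1536 bp in arid4b-delta endoderm and mesoderm and no H3K4me3 in any library. Kcnt1, a sodium-activated channel, had 1250 and 1062 bp, with a WT endoderm peak 1804 bp away and a WT peak elsewhere in the gene in each lineage. Kcnmb4, a neuronal beta subunit of the large-conductance channel, had 628 and 1922 bp. Kcna4 had 916 and 190 bp. All 7 except Kcnj5 carried H3K4me3 in arid4b-delta in both lineages.

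Kcnh2, Kcnj2 and Kcnj11 had H3K27me3 in both endoderm libraries and in arid4b-delta mesoderm, and not in WT mesoderm. Kcnh2, the rapid delayed rectifier of the heart, had H3K27me3 of 3821 and 3222 bp in arid4b-delta and WT endoderm, 3401 bp in arid4b-delta mesoderm and none in WT mesoderm, with a WT peak 2470 bp away. These Kcnh2 peaks were weak, at percentiles 7.29, 9.01 and 10.2 of their lists by fold enrichment and -log10 q of 1.05, 0.792 and 1.12. Kcnj2, the classical inward rectifier of heart and muscle, had 1323 and 2752 bp in arid4b-delta and WT endoderm, 1143 bp in arid4b-delta mesoderm and none in WT mesoderm. Kcnj11, the pore of the ATP-sensitive channel of pancreatic beta cells, had 1485 and 467 bp in arid4b-delta and WT endoderm, 800 bp in arid4b-delta mesoderm and none in WT mesoderm. H3K4me3 was present in all 4 libraries at these 3 genes. In the mesoderm, Kcng4, a silent subunit that modifies Kcnb channels, had 2624 bp in arid4b-delta only and no H3K4me3.

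Counted by library, H3K4me3 was present in 1 to 3 of its 4 libraries at 22 Kcn promoters (23.4%, against 6.85% of all genes), in 3 at 10, in 2 at 8 and in 1 at 4. The library without it was WT endoderm at all of those 10 (10.6%, against 2.74% of all genes). H3K27me3 was present in 1 to 3 libraries at 24 (25.5%, against 13% of all genes), in 3 at 10, in 2 at 8 and in 1 at 6. Of the promoters with H3K27me3 in any library, these were 24 of 64 in Kcn genes and 2854 of 4689 over all genes, a lower share in Kcn genes. H3K27me3 was absent from WT mesoderm alone at 9 (9.57%, against 3.66% of all genes), from WT endoderm alone at 1, Kcnv1, and from either arid4b-delta library alone at 0. The WT mesoderm H3K27me3 list was the shortest of all 12, with 6150 peaks.

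Each gene's arid4b-delta class was then set against its WT class, in lists of which the arid4b-delta ones are longer. All 36 Kcn promoters with both marks in WT endoderm had both in arid4b-delta endoderm, against 85.2% of all such genes, and all 33 of WT mesoderm had both in arid4b-delta mesoderm, against 93.9%. Of those with H3K27me3 only in WT, 13 of 14 in endoderm and 6 of 8 in mesoderm had both marks in arid4b-delta (59.5% and 58.9% of all such genes). Of those with H3K4me3 only in WT, 6 of 13 in endoderm and 15 of 26 in mesoderm had both in arid4b-delta, against 5.99% and 11% of all such genes. The 7 with H3K4me3 only in all 4 combinations included Kcnh4, Kcnh8, Kcnq3, Kcnt2, Kcnk1 and Kcnip2, and 5 of these 7 are among the 9 acetylated genes.

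The marks were unevenly spread over the channel classes. Both marks were present at 30 of 40 voltage-gated genes in arid4b-delta endoderm and 21 in WT endoderm, and at 29 in arid4b-delta mesoderm and 23 in WT mesoderm. Of 14 two-pore-domain genes, 10 and 6 had both in arid4b-delta and WT endoderm, and 10 and 5 in arid4b-delta and WT mesoderm. Inward rectifiers, 15 in all, had both at 8 and 5 promoters in arid4b-delta and WT endoderm and at 8 and 2 in arid4b-delta and WT mesoderm. Of the 8 calcium- or sodium-activated genes, 3 had both in arid4b-delta and 2 in WT, in either lineage. Auxiliary genes were the least marked, with 6 and 2 of 17 in arid4b-delta and WT endoderm and 5 and 1 in arid4b-delta and WT mesoderm, and 1 of 17, Kcnab3, had both in all 4. Of the 10 silent subunits, which modify Kcnb channels, Kcng1, Kcng2, Kcng3, Kcns2 and Kcns3 were in the core of 29, beside Kcnb2. The other 5 were not: Kcns1, Kcnf1 and Kcnv1 had H3K27me3 in at least 3 libraries, Kcng4 in 1, and Kcnv2 had no mark. In the Kcne family, whose members join Kcnq1 and Kcnh channels, 4 of 5 genes had no mark.

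Of 11 pairs of neighbouring Kcn genes with a gap under 250 kb, 8 differed in class in at least 1 combination and 3 had the same class in all 4 (Kcna3 and Kcna2, Kcna1 and Kcna6, Kcne2 and Kcne1). On chromosome 3, Kcna3 and Kcna2, 52.8 kb apart, had both marks in all 4 combinations, while Kcna10, 68.1 kb further, had none in any library, and Kcnc4, 243.0 kb beyond it, had both in all 4. On chromosome 11, Kcnj2 was marked and Kcnj16, 38.2 kb away, was not, although both encode inward rectifiers. On chromosome 14 the two-pore genes Kcnk5 and Kcnk16, 79.6 kb apart, differed in the same way, with no mark at Kcnk16. On chromosome 9 Kcnj5 had H3K27me3 in both arid4b-delta libraries and Kcnj1, 28.0 kb away, had none.

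The cluster of Kcna5, Kcna1 and Kcna6 on chromosome 6 shows the contrast within 1 region. Kcna1 and Kcna6 had H3K27me3 in all 4 libraries. Over Kcna1 it summed to 7963 and 6940 bp in arid4b-delta and WT endoderm and to 6648 and 3240 bp in arid4b-delta and WT mesoderm. Over Kcna6 it summed to 3131 and 2092 bp in arid4b-delta and WT endoderm and to 2937 and 1571 bp in arid4b-delta and WT mesoderm. H3K4me3 was absent from both genes in WT endoderm alone and measured 1446 bp at Kcna1 and 381 bp at Kcna6 in arid4b-delta endoderm. In mesoderm H3K4me3 summed to 1612 and 1288 bp at Kcna1 in arid4b-delta and WT, and to 829 bp in arid4b-delta and 852 bp in WT at Kcna6. Kcna5 had neither methylation mark in 3 combinations and both in arid4b-delta mesoderm.

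**Figure D5:**
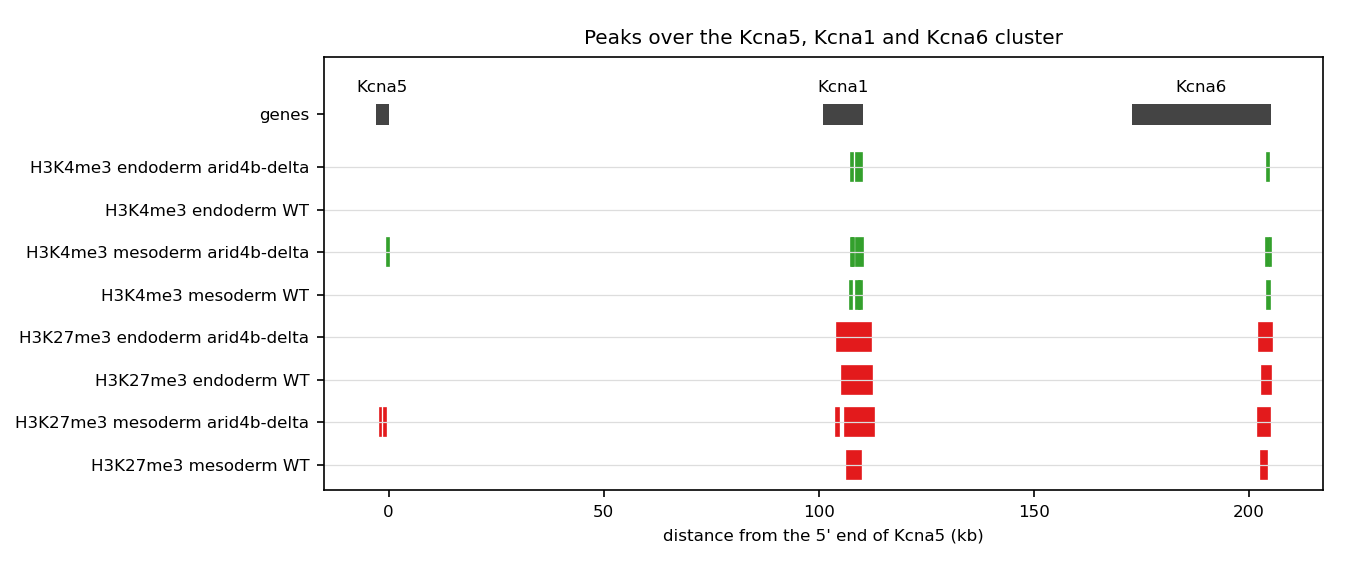
Peaks of H3K4me3 (green) and H3K27me3 (red) over the Kcna5, Kcna1 and Kcna6 genes (dark bars), 1 row per library, against distance in kb from the 5' end of Kcna5. Peaks are drawn to scale with a thin outline so that short ones stay visible. The WT endoderm H3K4me3 row is empty, and Kcna5 has peaks in the arid4b-delta mesoderm rows alone.

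Between the lineages, the methylation marks differed at fewer Kcn promoters in arid4b-delta than in WT, as they did over all genes. In arid4b-delta, H3K4me3 was in endoderm only at 1 Kcn promoter, Kcns1 (background 0.347%), and in mesoderm only at 3, Kcna5, Kcne3 and Kcnu1 (background 1.29%). In WT it was in endoderm only at 0 (background 0.466%) and in mesoderm only at 10 (10.6%, 5.22 to 18.7, background 2.99%). H3K27me3 in arid4b-delta was in endoderm only at 4, Kcnj9, Kcnip3, Kcnab2 and Kcnh6 (4.26%, background 3.09%), and in mesoderm only at 3, Kcnab1, Kcna5 and Kcng4 (3.19%, background 2.22%). In WT, H3K27me3 was in endoderm only at 10 (10.6%, background 6.09%) and in mesoderm only at 1, Kcnv1 (1.06%, background 0.927%). The endoderm and mesoderm H3K27me3 lists held 16660 and 9863 peaks in arid4b-delta and 10326 and 6150 in WT. The part of list length in these counts was not tested. H3K27ac was in endoderm only at 2 in arid4b-delta, Kcnq3 and Kcnip2 (background 2.15%), and at 2 in WT, Kcnmb2 and Kcnh8 (background 3.42%). It was in mesoderm only at 4 in arid4b-delta, Kcnt2, Kcnip3, Kcnmb2 and Kcnab2 (background 7.58%), and at 3 in WT, Kcnip3, Kcnab2 and Kcnn1 (background 6.53%). Apart from H3K4me3 in WT mesoderm, these shares lie within 2 times the background or rest on 1 to 4 genes.

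Kcnip3 was the only member whose marks differed between the lineages in the same way in both genotypes for 2 marks. At its promoter it had H3K27me3 in endoderm, of 1172 bp in arid4b-delta and 2552 bp in WT, and no H3K27ac. The arid4b-delta endoderm peak lay 976 bp from the nearest promoter end, so it only touched the edge of the 1000 bp window. In mesoderm the promoter had no H3K27me3, and H3K27ac of 175 bp in arid4b-delta and 406 bp in WT, while an H3K27me3 peak lay elsewhere in the gene in arid4b-delta mesoderm. H3K4me3 was present in all 4, with 3320 and 1406 bp in arid4b-delta and WT endoderm and 3279 and 2341 bp in arid4b-delta and WT mesoderm. These lengths are sums over the peaks at 3 promoter ends. Over all genes 10 had this pattern (0.0457%).

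Where both genotypes carried a mark, its domain was mostly longer in arid4b-delta, as it was over all genes. H3K4me3 was longer in arid4b-delta at 49 of 49 Kcn promoters in endoderm (median 1281 bp in arid4b-delta and 686 bp in WT) and at 55 of 59 in mesoderm (1318 bp in arid4b-delta and 852 bp in WT). Over all genes it was longer at 98.6% and 95.4%. H3K27me3 was longer in arid4b-delta at 40 of 50 in endoderm (3938 bp in arid4b-delta and 2450 bp in WT) and at 40 of 41 in mesoderm (3718 bp in arid4b-delta and 1357 bp in WT), against 80.3% and 95.1% over all genes. The Kcn counts are thus near the background for both marks. Over promoters marked in both genotypes, the median H3K27me3 length of Kcn genes was above that of all genes in arid4b-delta endoderm (3033 bp over all genes), WT endoderm (2088 bp), arid4b-delta mesoderm (3386 bp) and WT mesoderm (1291 bp), and H3K4me3 was shorter than over all genes in every one.

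Sequence motifs were searched on both strands of the 300-base promoters, which the RefSeq table gave for 69 members and 17492 genes. The RE1 element, bound by Rest, was searched as 2 separate motifs. The left motif, TTCAGCACC, was found in 1 of 69 Kcn genes, Kcnh6, and in 0.48% of all genes, and the short right motif, GGACAGC, in 12 of 69 (17.4%) and 8.0% of all genes. The canonical arrangement, 2 bases apart, was found in 0 of 69 Kcn genes and in 2 of all genes (0.0114%). The GC box CCGCCC was present in 43 of 69 (62.3%, against 49.2% of all genes), TATAAA in 5 (7.25%, against 14.8%) and the E-box CACGTG in 6 (8.7%, against 8.91%). A match is only a run of letters in this window and does not show binding.

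In Kcnh6 both RE1 motifs lie on the same strand, at bases 65 to 73 and 81 to 87 of the promoter, with 7 bases between them. This promoter is shown for that pair (plus strand, chr11:106007898-106008197, RefSeq GRCm38.p6), with the 2 motifs in capitals. The H3K4me3 peak of arid4b-delta endoderm, chr11:106007983-106008269, begins within the right motif, and that of arid4b-delta mesoderm, chr11:106008035-106008271, begins downstream of it.

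Kcnh6: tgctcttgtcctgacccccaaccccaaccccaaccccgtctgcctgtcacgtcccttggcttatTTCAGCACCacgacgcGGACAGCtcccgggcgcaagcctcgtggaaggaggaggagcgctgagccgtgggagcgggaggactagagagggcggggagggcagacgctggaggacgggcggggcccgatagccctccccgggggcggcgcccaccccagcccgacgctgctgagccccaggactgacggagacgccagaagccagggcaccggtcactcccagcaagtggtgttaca

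Other channel genes gave a scale for these counts. They were grouped by the start of the symbol alone, so a set may hold genes of other function. Both marks were present in arid4b-delta and WT endoderm at 21 and 13 of 28 glutamate receptor genes (Gria, Grik, Grin, Grid and Grm), and in arid4b-delta and WT mesoderm at 21 and 18. Calcium channel genes (26, symbols beginning with Cacn) had both at 15 and 13 in arid4b-delta and WT endoderm and at 17 and 13 in arid4b-delta and WT mesoderm. Sodium channel genes (18, symbols beginning with Scn) had both at 7 in arid4b-delta and 2 in WT endoderm, and at 7 in arid4b-delta and 3 in WT mesoderm. GABA-A receptor genes (19, symbols beginning with Gabr) had both at 7 and 6 in arid4b-delta and WT endoderm and at 9 and 6 in arid4b-delta and WT mesoderm, and 3 of the 4 Hcn genes had both in each combination. Of 9 chloride channel genes, both marks were at 1 in arid4b-delta and 1 in WT endoderm, and at 1 in arid4b-delta and 0 in WT mesoderm. Acetylation was at 5 in arid4b-delta and 4 in WT endoderm, and at 4 in arid4b-delta and 5 in WT mesoderm. Promoters with both marks were thus found in glutamate receptor and calcium channel genes as well, and few were found in chloride channel genes. Of 14 proteins that partner potassium channels or belong to the related Hcn family, 8 and 5 had both marks in arid4b-delta and WT endoderm, and 9 and 5 in arid4b-delta and WT mesoderm. Abcc8, the sulphonylurea receptor that pairs with Kcnj11, had H3K27me3 only in WT endoderm and both marks in the other 3 combinations.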

How the data were processed

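Per the labels, arid4b-delta and WT CJ9 cells were differentiated for 5 days towards endoderm or mesoderm, and chromatin was crosslinked for 8 min before ChIP-seq. The 16 samples comprise 12 ChIP libraries, each with its own peak list, and 4 input DNA samples, which were not analysed here. MACS2, Bowtie2 and Picard were used by the authors on mm10, per the submitters' processing notes, and versions and settings are not given in the sources used here. Peaks were called per library, narrow for H3K4me3 and H3K27ac and broad for H3K27me3, as the deposited columns show.

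Column 5 of each deposited list is a score set by the authors' peak caller. Column 7 holds the authors' fold enrichment, a ratio to the background. The authors' -log10 p values are in column 8 and their -log10 q values in column 9. In the narrow lists column 10, another unit set by the authors, is the summit position from the peak start. Fold enrichment, then -log10 q, ranked peaks within a list, and folds of different lists were not compared. A stronger or deeper library yields more and longer peaks, and a list holds no read totals, so depth is unknown.

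Peaks were joined to 21887 protein-coding genes of chromosomes 1 to 19, X and Y (RefSeq, GRCm38.p6). Promoter ends were the starts listed in the RefSeq promoter table plus the 5' gene end (69 members, 17492 genes). For genes without a listed start they were the gene end with more H3K4me3 coverage over the 4 H3K4me3 libraries (21 members), or else both ends (4 members). Adding the 5' gene end was decided after values were seen, since 13 members have it over 1000 bp from every listed start. For the 21 members, among them Kcnq1, Kcnk9, Kcna1, Kcnd1 and Kcnu1, H3K4me3 helped to choose the end. Their H3K4me3 contrasts are not independent of that choice. Peaks could not be placed in exons or introns. Another gene's promoter end lies within 1000 bp of 3 members, among them Kcnab2 and Kcnu1. Only overlap counts and shares were computed (Python 3.11.15, pandas 2.3.3, numpy 2.4.6, scipy 1.17.1), and the overlap code was tested on simulated data.

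The members and lists were chosen with earlier results of these data known. Genes were named by rule: per mark, lineage and direction up to 8 members marked in 1 genotype only, by fold enrichment, every acetylated member, those marked in 1 genotype only in both lineages, 6 with the longest H3K27me3 among those with both marks in all 4 combinations, and, whatever their values, genes that include Kcnq1, Kcnh2, Kcnj2, Kcnj11, Kcnk1, Kcnn4 and Kcnma1. Some members enter every count but are not reported here by name. Other genes named were chosen after their values were seen, among them Kcnq5, Kcnk18, the unmarked genes and the neighbouring pairs. Protein sequence was not used here.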

Additional observations from a re-analysis of the deposited data

Results flagged for a closer look

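Kcnmb2, a beta subunit of the large-conductance calcium-activated channel, had promoter H3K27ac in opposite genotypes in the 2 lineages. The difference between the lineages was not tested, as each group has 1 library. In mesoderm the mark was in arid4b-delta only, with a fold enrichment of 4.6 and a -log10 q of 3.47, at percentile 6.39 of its list. In endoderm it was in WT only, with a fold enrichment of 5.95 and a -log10 q of 8.04, at percentile 31.5. These are weak peaks of 308 and 206 bp at nearly the same place, and H3K4me3 was in arid4b-delta only in both lineages. The parts of depth and of list length in this were not tested.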

How the results depend on the processing

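The 17 counts were recomputed under 9 settings, 3 of them added after the data were seen. Of 153 values, 117 stayed within 1.5 times the main count and 36 moved. Both marks in all 4 combinations, a count added to these settings after the data were seen, were at 14 Kcn promoters in lists matched in length, 1 with the upper 50% of each list and 15 with at least 500 bp covered. In lists matched in length, H3K4me3 in WT only was at 1 Kcn promoter in mesoderm. H3K27me3 in WT only was at 15 in endoderm and 12 in mesoderm, where arid4b-delta only had 12. Mesoderm H3K27ac was at 1 for arid4b-delta only and 1 for WT only, and both methylation marks were at 36 in arid4b-delta mesoderm. Keeping the 50% of each list with the highest fold, both marks were at 20 and 6 in arid4b-delta and WT endoderm, and 15 and 5 in arid4b-delta and WT mesoderm. H3K4me3 in arid4b-delta only was at 26 in mesoderm, and in WT only at 2 in endoderm and 1 in mesoderm. Endoderm H3K27me3 was at 17 for arid4b-delta only and 12 for WT only, and mesoderm H3K27me3 at 11 for WT only. H3K27ac in WT only was at 0 in endoderm and 2 in mesoderm.

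With at least 500 bp of the window covered, H3K27me3 in WT only was at 2 in each lineage. Endoderm H3K27ac was at 0 for arid4b-delta only and 0 for WT only, mesoderm H3K27ac at 1 for arid4b-delta only and 1 for WT only, and both marks were at 22 in WT endoderm. With either gene end, mesoderm H3K4me3 in arid4b-delta only was at 7 and endoderm H3K27ac in WT only at 0. In a window of 2500 bp, endoderm H3K27me3 in WT only was at 1, endoderm H3K27ac in WT only at 2 and mesoderm H3K27ac in arid4b-delta only at 5. In a window of 500 bp, H3K27me3 in WT only was at 2 in endoderm and 1 in mesoderm. The cause of these moves was not tested, beyond fewer peaks being kept in the first 2 settings. No paired analysis was possible because there is 1 library per group. Depth is unknown, so an absent peak says only that none was called.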

Other observations

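In endoderm 28 Kcn genes had an H3K27ac peak between their gene ends in arid4b-delta (29.8%, against 34.2% of all genes) and 8 in WT (8.51%, against 28.3%). At 24 of these in arid4b-delta (25.5% of Kcn genes, against 9.61% of all genes) and 6 in WT (6.38%, against 3.97%) the promoter had none. In mesoderm 20 had one in arid4b-delta (21.3%, against 36.4%) and 9 in WT (9.57%, against 31.2%), and of these 14 in arid4b-delta (14.9%, against 6.31%) and 6 in WT (6.38%, against 3.11%) were not acetylated at the promoter. Kcnh1, Kcnh6 and Kcnn2 had H3K27ac inside the gene and not at the promoter in all 4 combinations. Kcnq1, the cardiac and epithelial channel, had a peak inside the gene in WT endoderm and in both mesoderm libraries. The arid4b-delta H3K27ac lists were 2.52 and 1.82 times as long as the WT lists in endoderm and mesoderm, and the part of list length in these counts was not tested. Long genes hold more peaks, and gene length was not taken into account.

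Counted over the 12 lists, with its 3 promoter ends pooled, Kcnn1 was the most widely marked member. It had a promoter peak in 11 lists, all but H3K27ac in WT endoderm. A further 30 members were marked in 8 lists, 12 in 7 and 13 in 6, and 18 in 0.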
